A study of Mus musculus with 12 samples.

Results

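The genotype by PDGF-BB interaction asks whether a gene's response to the growth factor differs between wild-type vascular smooth muscle cells and cells labelled Tigar knockout. All 12 libraries of the series enter it. It was tested for 14202 of the 55487 genes listed, namely those with at least 1 CPM (counted reads scaled to a library total of 1000000) in at least 3 libraries. The 4 groups held 3 libraries each: wild-type cells without PDGF-BB, wild-type cells given PDGF-BB (40 µg/L for 6 h), and cells of Tigar knockout mice without and with the same treatment. Every group was a primary culture from mice aged 4 to 6 weeks, kept in serum-supplemented DMEM/F12 and used between passages 4 and 6. RNA with an integrity number above 7 was used for stranded poly(A) libraries. The sample labels give no strain, vessel, deleted exon or source animal per library, so the p-values below measure only the spread between these samples, which may be technical.

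PDGF-BB binds PDGF receptors on smooth muscle cells and activates the RAS to ERK and the PI3K to AKT cascades. It is known for driving these cells from a contractile towards a dividing, matrix-producing state. TIGAR is a phosphatase that lowers fructose 2,6-bisphosphate, an activator of glycolysis, and so diverts glucose into the pentose phosphate pathway. Several transcription programmes sit downstream of growth factor signalling: the immediate early genes follow ERK, FoxO factors are switched off by AKT, HIF raises glycolytic enzymes, ATF4 raises amino acid and folate enzymes, and SREBP2 raises cholesterol synthesis.

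The libraries held 14953807 to 21698488 reads, and 1 read was worth 0.0669 CPM at the lowest depth. The transcript named in the genotype label was checked first. Untreated, Tigar stood at 6.99, 8.61 and 6.91 CPM in wild-type and at 10.0, 12.2 and 11.3 CPM in labelled knockout. With PDGF-BB it stood at 11.5, 11.5 and 12.6 CPM and 14.6, 14.7 and 16.2 CPM. Every labelled knockout library was above every wild-type library of the same treatment, at a log2 difference of 0.52 untreated (SE 0.11, adjusted p = 0.00209) and 0.33 treated (SE 0.11, adjusted p = 0.0292). The treated difference lost its call when treated wild-type replicate 2 or any treated labelled knockout library was left out (lowest value 0.28). One value per gene cannot show whether part of the gene is deleted, so the genotype is given by label throughout, as labelled knockout.

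Of the 12 libraries, wild-type with PDGF-BB replicate 1 stood apart. Its root mean square distance from its group mean was 0.278 (log2), against 0.0954 to 0.196 in the other 11. Across genes its difference from that mean fell with exon length (Spearman rho -0.577). Replicates 2 and 3 of that group rose with it (rho 0.431 and 0.526), since differences from a shared mean offset each other. In the other groups rho lay between -0.254 and 0.169. Markers of several other cell types differed between the genotype labels. Sums are over all listed markers (12 endothelial, 12 macrophage, 10 fibroblast, 6 Schwann cell, 7 adipocyte, 8 epithelial and 9 striated muscle). Counts are over those measured. Untreated, endothelial markers summed to 312 to 323 CPM in wild-type and 915 to 1024 CPM in labelled knockout, and macrophage markers to 160 to 173 and 38.2 to 47.5 CPM. With PDGF-BB the sums were 267 to 307 against 900 to 928 CPM and 121 to 176 against 37.3 to 41.2 CPM. Of 11 endothelial markers 10 were higher in labelled knockout untreated, and of 11 macrophage markers 11 were lower (9.15% and 24.8% of all genes). Among these the interaction was called in Csf1r alone. Fibroblast markers summed to 513 to 536 and 1475 to 1730 CPM untreated, and to 427 to 458 and 1085 to 1104 CPM with PDGF-BB, but of 8 measured fibroblast markers 3 were higher and 1 lower in labelled knockout untreated, with a median difference of -0.14. Schwann cell markers summed to 49.5 to 57.0 CPM in untreated wild-type and 17.6 to 20.3 CPM in untreated labelled knockout, where 4 of 4 measured were lower, and to 37.3 to 59.0 and 13.7 to 14.8 CPM with PDGF-BB. Sox10 of Schwann cells, Lep of adipocytes and Myod1 of skeletal muscle were at 0 in all 12 libraries. Other markers of these lists were detected. Untreated, adipocyte markers summed to 8.996 to 10.3 CPM in wild-type and 13.7 to 15.4 CPM in labelled knockout. Striated muscle markers summed to 3.11 to 5.12 and 3.68 to 4.17 CPM, and epithelial markers to 4.12 to 5.36 and 17.1 to 20.35 CPM. With PDGF-BB the sums were 9.01 to 13.1 and 9.87 to 11.4 CPM for adipocyte markers. They were 3.26 to 5.10 and 3.25 to 4.47 CPM for striated muscle, and 7.36 to 13.7 and 19.2 to 21.4 CPM for epithelial markers. The 18 listed contractile smooth muscle genes summed to 5935 to 6790 CPM in untreated wild-type and 6293 to 8380 CPM in untreated labelled knockout. With PDGF-BB the sums were 4160 to 4972 and 7207 to 7381 CPM. Of 17 measured, 9 were higher in labelled knockout untreated and 14 with PDGF-BB (9.15% and 10.6% of all genes). In neither treatment was any lower (24.8% and 26.6% of all genes). The part of other cell types in the interactions below was not tested, and fewer cells of a type cannot be told apart from less RNA per cell in these bulk libraries.

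The response to PDGF-BB was smaller in labelled knockout across the transcriptome, for genes that rose and for genes that fell. In each genotype the response is the log2 change in CPM + 1 with PDGF-BB. Among the 3858 genes whose mean response over both genotypes rose (27.2% of those tested), the median response was 0.53 in wild-type and 0.36 in labelled knockout. Among the 5473 whose mean response fell (38.5%), it was -0.57 and -0.40. Of these 9331 genes (65.7%), 76.5% moved less in labelled knockout than in wild-type, and the median difference in the direction of the response was -0.17. The mean response weighs both genotypes alike, so choosing genes by it favours neither only if their errors are alike. Root mean square distances from the group mean were 0.144 to 0.278 in treated wild-type and 0.0954 to 0.105 in treated labelled knockout. Untreated they were 0.108 to 0.115 and 0.117 to 0.158. The choice can therefore favour larger wild-type estimates, and by how much was not tested.

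A straight line through the origin, fitted by orthogonal least squares to both genotypes' responses over all 14202 genes, had a slope of 0.716. The slope was 0.739 over the genes that rose and 0.711 over those that fell. For mean responses of 0.25 to 0.5 (log2) the slope was 0.661 for rises and 0.658 for falls, for those of 0.5 to 1 it was 0.697 for rises and 0.706 for falls, for 1 to 2 it was 0.792 and 0.726, and for 2 and over it was 0.796 and 0.763. Below 0.25 it was 0.234 and 0.431. The orthogonal fit takes the errors of both responses as alike, which the distances above do not show for treated libraries. Fitted by ordinary least squares, which takes the wild-type response as free of error, the slope was 0.652.

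**Figure D1:**
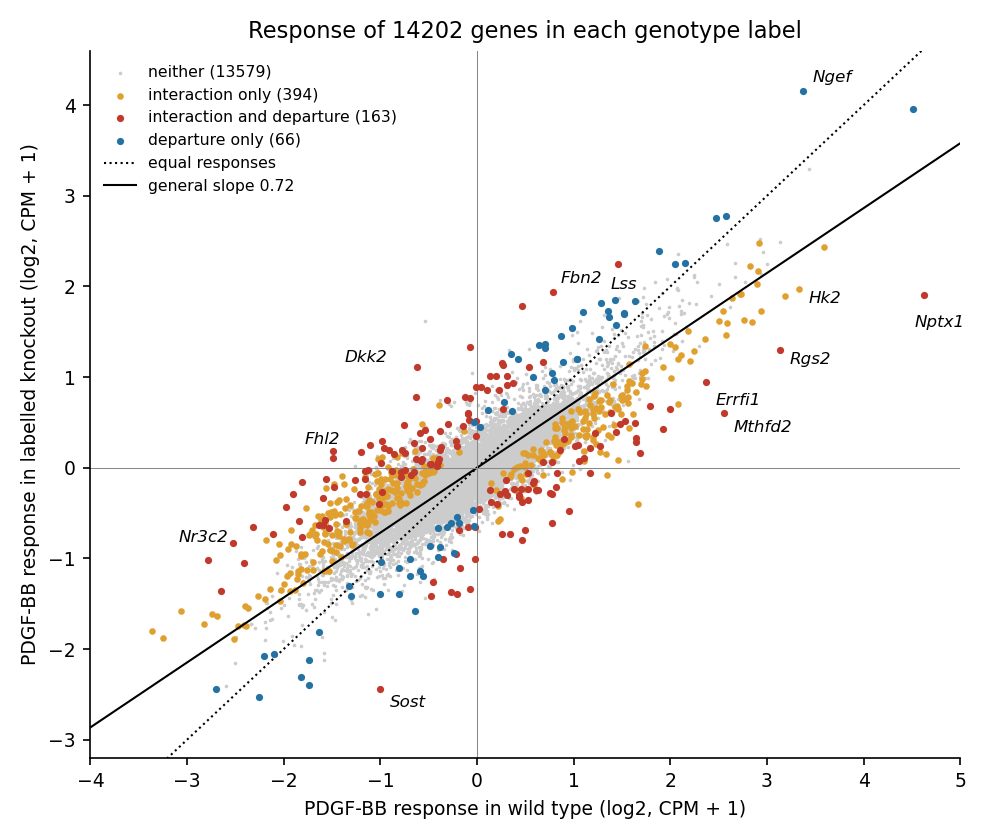
Response to PDGF-BB (log2 of CPM + 1) in wild-type on the horizontal axis and in labelled knockout on the vertical axis, 1 point per gene for 14202 genes. The solid line is the general slope of 0.716, the dotted line marks equal responses, and colours mark the 394 genes called in the interaction alone, the 163 called also in the departure from the slope and the 66 called in the departure alone.

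Each treated library showed the difference. Scaled so that the mean response of both genotypes is 1, the response size was 1.28, 1.11 and 1.07 in the wild-type libraries and 0.852, 0.810 and 0.873 in the labelled knockout libraries. The genotypes did not overlap, and the wild-type library that stood apart was the highest. Each value was taken against the mean of the same 3 untreated libraries of its genotype and scaled on a mean response that includes it. The 3 values of a genotype therefore share a baseline and are not independent, and neither are the list medians by library below. With a single treated wild-type library against the 3 labelled knockout libraries, the slope was 0.545 for replicate 1, 0.732 for replicate 2 and 0.748 for replicate 3. With a single labelled knockout library it was 0.735, 0.696 and 0.757. Without wild-type replicate 1 the slope was 0.754 and the median difference in the direction of the response was -0.11.

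**Figure D2:**
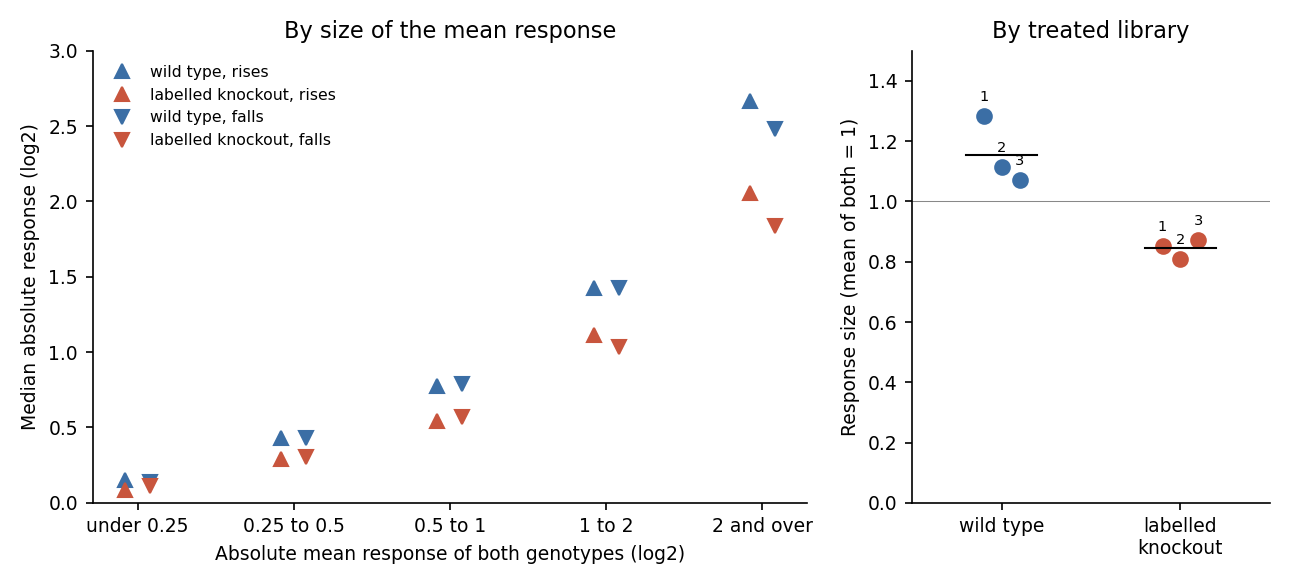
Left, median absolute response (log2) against the absolute mean response of both genotypes in 5 size classes, with upward triangles for genes that rose and downward ones for genes that fell. Right, response size of each of the 6 treated libraries (mean of both genotypes set to 1, bars at the group means, numbers for replicates): wild-type libraries lie at 1.07 to 1.28 and labelled knockout ones at 0.810 to 0.873.

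The levels of the 2 genotypes were also compared for rises and falls. Among the 361 genes whose mean response was a rise of at least 2-fold, the median level in labelled knockout was 0.09 (log2) above wild-type untreated and 0.31 below it with PDGF-BB. Among the 498 with a mean fall of at least 2-fold, it was 0.35 below wild-type untreated and 0.07 above it with PDGF-BB. The rises thus ended lower in labelled knockout and the falls began lower, but these gaps include any offset over all genes. Over all 14202 genes the median gaps were -0.13 untreated and -0.14 with PDGF-BB. Relative to these, the rises lay above untreated and below with PDGF-BB, and the falls below untreated and above with PDGF-BB. A different form for rises and falls is therefore not shown. The response was called (adjusted p under 0.05) in 59.4% of genes in wild-type and 42.4% in labelled knockout, and the labels differed in 34% untreated and 37.2% with PDGF-BB. Treated and untreated libraries did not overlap in 62.3% of genes in wild-type and 63.2% in labelled knockout. The labels did not overlap in 54.7% of genes untreated and 49.5% with PDGF-BB, so that groups which stand apart are common here.

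The interaction was called in 557 genes at an adjusted p under 0.05, 3.92% of those tested (2730 had an unadjusted p under 0.05). It was above 0, meaning a response higher in labelled knockout, in 319 genes (2.25%) and below 0 in 238 (1.68%), the shares to set beside the list counts below. This split depended on scaling: it was 261 and 298 with TMM scaling, 228 and 268 with edgeR on recovered reads, 409 and 496 with DESeq2, 314 and 275 after quantile normalization, and 467 and 665 after removal of each library's trend with exon length. With wild-type with PDGF-BB replicate 1 left out it was 811 and 743, with 556 of the 557 genes among them. The median exon length was 4164 bases in the genes above 0, 2940 in those below 0 and 2864 in all genes tested.

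Of the 557 genes, 417 (74.9%) had a response of the same direction but smaller in labelled knockout, a shape held by 61.3% of all genes tested. Another 111 (19.9%, against 15% of all genes) had estimates of opposite direction, and 29 (5.21%, against 23.7%) a larger response in labelled knockout. Both responses were called in the same direction in 325, only that of wild-type in 166, only that of labelled knockout in 36, and both in opposite directions in 30. The interaction is also the difference between 2 gaps, labelled knockout minus wild-type with PDGF-BB and untreated, which share all its libraries, so the gaps describe it and do not test it. For the 173 genes with a smaller rise, the median gap was 0.20 untreated and -0.48 with PDGF-BB, and the labels differed only with PDGF-BB in 82 and only untreated in 39. For the 244 genes with a smaller fall it was -0.46 and 0.21, and the labels differed only untreated in 103 and only with PDGF-BB in 57. These gaps and counts include the median offset over all genes, -0.13 untreated and -0.14 with PDGF-BB. Among all genes labelled knockout was lower in 24.8% untreated and 26.6% with PDGF-BB, and higher in 9.15% and 10.6%. A different form for rises and falls is therefore not shown here either.

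To separate the general shrinkage from single genes, a departure was tested for each gene: the response in labelled knockout minus 0.716 times the response in wild-type. It was called in 229 genes (1.61%), 129 above 0 (0.908%) and 100 below (0.704%), the shares to set beside the list departures below. Of the 557 interaction genes 394 were not called in the departure, and 358 of these had the smaller shape. Of the 229 departures, 76 had estimates of opposite direction and 59 a response of the same direction but smaller than the slope gives. Another 5 lay between the slope and wild-type, and 89 had a larger response than wild-type. The slope was held fixed and its own error is not part of that test. When wild-type with PDGF-BB replicate 1 was left out the departures numbered 784 and held all 229.

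Among single genes the largest negative interaction was in Nptx1 (ENSMUSG00000025582, chr11:119538719-119547753 in GRCm38), which encodes a secreted neuronal pentraxin. Its level was 4.41, 4.02 and 4.35 CPM in untreated and 108, 142 and 139 CPM in treated wild-type, and 6.61, 9.23 and 7.12 CPM in untreated and 29.1, 30.5 and 33.9 CPM in treated labelled knockout. The gene rose in both genotypes without overlap, from a higher start and to a lower end in labelled knockout. The responses were 4.62 and 1.91, the interaction -2.72 (SE 0.18, adjusted p = 1.35e-05) and the departure -1.40 (SE 0.16, adjusted p = 0.00131).

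Inhibitors of receptor signalling were among the genes that rose less. Rgs2 (ENSMUSG00000026360, chr1:143999338-144004161) encodes a GTPase activator that ends Gq signalling by vasoconstrictors. It went from 16.8, 16.1 and 17.2 to 214, 136 and 126 CPM in wild-type and from 7.26, 7.29 and 7.34 to 19.3, 18.3 and 20.5 CPM in labelled knockout, where the treated libraries lay just above untreated wild-type. Its interaction was -1.84 (SE 0.21, adjusted p = 0.000431) and its departure -0.95 (adjusted p = 0.0214, called in 18 of 26 alternative settings). Errfi1 (ENSMUSG00000028967, chr4:150853919-150868892), a feedback inhibitor of the EGF receptor, went from 34.6, 37.1 and 34.4 to 176, 189.9 and 193 CPM in wild-type. In labelled knockout it went from 24.8, 22 and 26.4 to 47.4, 44.7 and 51.1 CPM, so that it was lower than wild-type with and without PDGF-BB and rose less (interaction -1.42, SE 0.11, adjusted p = 7.35e-05, departure -0.75, adjusted p = 0.00248).

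Tnfaip2 and Plxna2 rose in wild-type, and their response in labelled knockout did not pass the test. Tnfaip2, a gene named for its induction by TNF, stood at 21.6, 21.3 and 20.3 CPM and rose to 49.9, 49.7 and 46.2 CPM in wild-type. In labelled knockout it stood at 12.9, 14.2 and 12.7 CPM untreated and 12.1, 12.9 and 13 CPM with PDGF-BB, and those groups overlapped. The responses were 1.17 (adjusted p = 6.01e-08) and -0.063 (adjusted p = 0.548), and the interaction was -1.23 (adjusted p = 0.000135). Plxna2, a semaphorin receptor subunit, went from 56.8, 53.2 and 56.5 to 97.5, 186 and 202 CPM in wild-type, where treated replicate 1 lay below all 6 labelled knockout libraries and the other treated ones above them, and stood at 113, 101 and 107 and 118, 107 and 118 CPM in labelled knockout (interaction -1.37, adjusted p = 0.0133). Mall, a membrane raft protein of the MAL family, rose from 0.756, 0.713 and 1.07 to 6.5, 7.51 and 5.15 CPM in wild-type and from 1.96, 1.87 and 1.56 to 3.23, 3.31 and 3.56 CPM in labelled knockout (interaction -1.35, adjusted p = 0.00225).

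**Figure D3:**
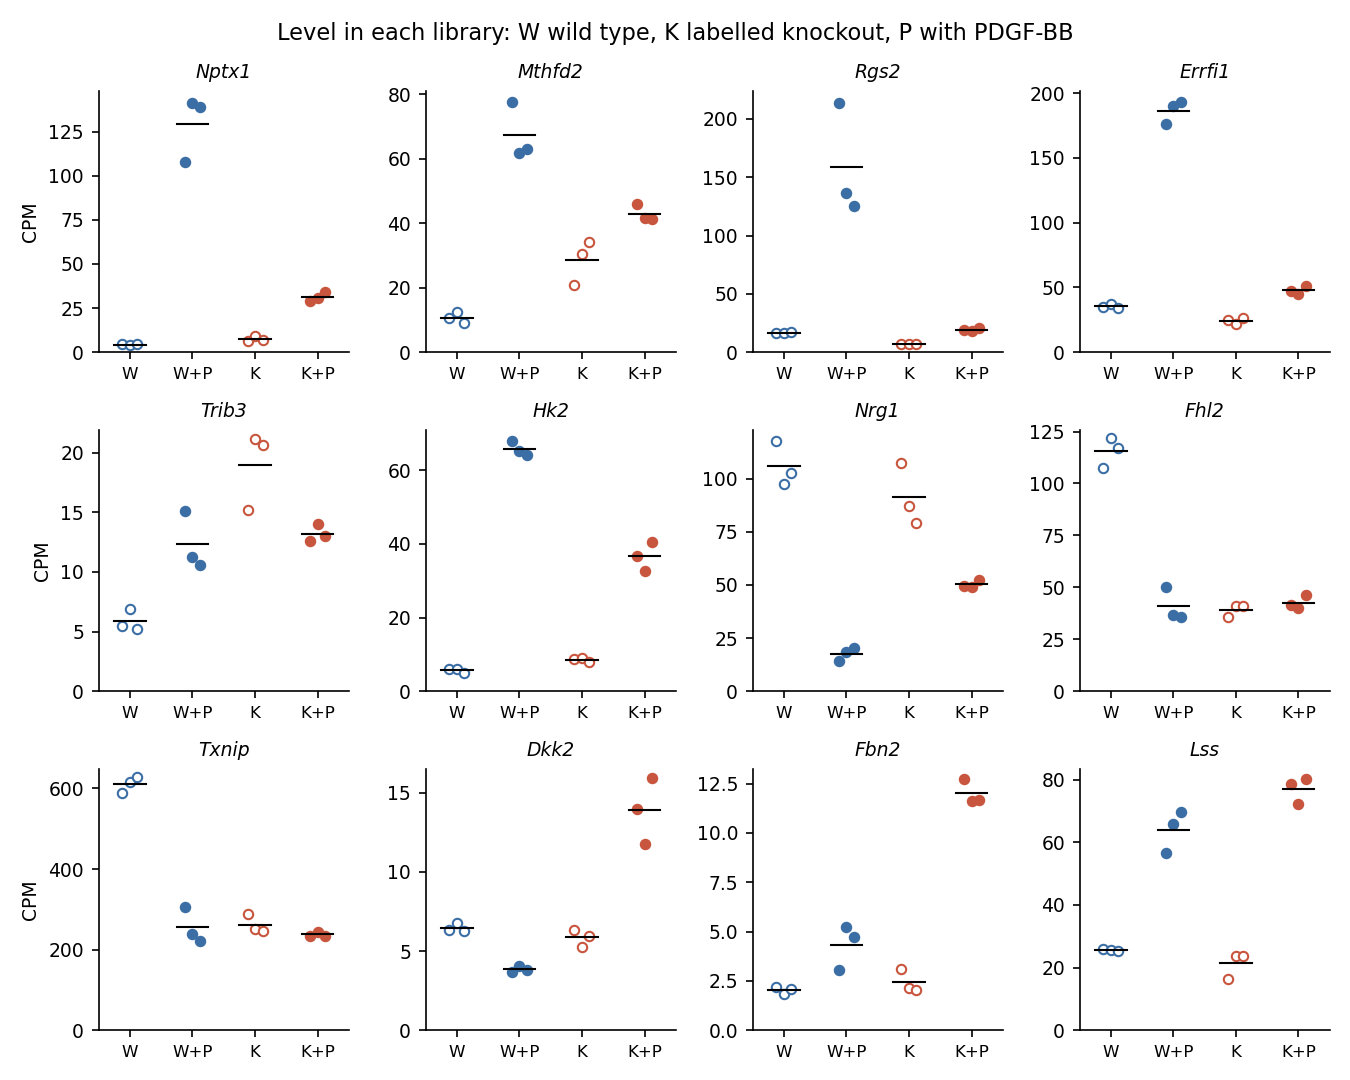
Level (CPM) of 12 genes in each of the 12 libraries, open circles untreated and filled circles with PDGF-BB, bars at group means. Nptx1, Mthfd2, Rgs2, Errfi1 and Hk2 rise less in labelled knockout, Trib3 and Dkk2 move in opposite directions, Nrg1, Fhl2 and Txnip fall in wild-type, and Fbn2 and Lss have their highest libraries in treated labelled knockout.

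Targets of ATF4, the transcription factor of the amino acid response, formed the list with the most departures below 0. Of its 22 measured members, 18 rose and 2 fell in wild-type (25% and 34.4% of all genes), against 7 and 4 in labelled knockout (17.6% and 24.8%). The median response was 0.99 in wild-type and 0.27 in labelled knockout, where over all genes these medians were -0.08 and -0.07. The interaction was called below 0 in 7 members and above 0 in none, with 17 at an unadjusted p under 0.05. With edgeR and DESeq2 it was below 0 in 9 and 12 and above 0 in none. The departure was likewise below 0 in 7, with a median of -0.48 (-0.01 over all genes). Median responses by library were 1.11, 0.90 and 0.80 in wild-type and 0.27, 0.27 and 0.24 in labelled knockout, without overlap. Untreated, 12 members were higher and 3 lower in labelled knockout (9.15% and 24.8% of all genes), and with PDGF-BB 3 were higher and 10 lower (10.6% and 26.6%).

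Mthfd2, a mitochondrial folate dehydrogenase, had the largest negative interaction of that list. It stood at 10.6, 12.3 and 9.06 CPM and rose to 77.7, 61.7 and 62.9 CPM in wild-type. In labelled knockout it began at 20.9, 30.5 and 34.3 CPM and reached 45.9, 41.7 and 41.2 CPM. It was therefore higher than wild-type untreated and lower with PDGF-BB, each time without overlap, and the responses were 2.56 and 0.60 (interaction -1.96, SE 0.22, adjusted p = 0.000431, departure -1.23, adjusted p = 0.00778). Shmt2, the mitochondrial serine hydroxymethyltransferase, had responses of 1.53 and 0.52 (interaction -1.01, adjusted p = 0.00119). Psph and Phgdh, which make serine, had responses of 1.25 and 1.03 in wild-type and 0.38 and 0.30 in labelled knockout, but their interactions did not pass (adjusted p = 0.068 and 0.12).

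Asns and Aars, genes of amino acid supply, rose in wild-type and were called below 0 in the interaction. Asns, asparagine synthetase, went from 24.8, 26.5 and 25.5 to 107, 72.8 and 70.4 CPM in wild-type and from 39.5, 54.9 and 54.9 to 61.7, 61.2 and 63.6 CPM in labelled knockout. Wild-type with PDGF-BB replicate 1 was its highest library, the labelled knockout response was not called (adjusted p = 0.089), and the interaction was -1.31 (SE 0.21, adjusted p = 0.00373). Its departure was -0.84 (adjusted p = 0.037, called in 14 of 26 alternatives). Aars, the alanyl-tRNA synthetase, went from 108, 119.9 and 105 to 276, 269 and 260.2 CPM in wild-type and from 164, 185 and 189 to 214, 210.5 and 211 CPM in labelled knockout. None of its 4 groups overlapped another: labelled knockout lay between the wild-type levels (interaction -1.03, SE 0.10, adjusted p = 0.000165, departure -0.67, adjusted p = 0.00248). Slc7a5, a large neutral amino acid transporter, had responses of 1.48 and 0.48 (adjusted p of the interaction = 0.00268). Slc38a2, a neutral amino acid transporter, had responses of -0.69 and -1.01 (departure -0.51, adjusted p = 0.0248). Atf4 itself had 1.20 and 0.31 (interaction -0.89, adjusted p = 0.0215).

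Trib3, a pseudokinase induced by ATF4 and CHOP, moved in opposite directions. It rose from 5.42, 6.92 and 5.18 to 15.1, 11.2 and 10.5 CPM in wild-type and fell from 15.2, 21.1 and 20.6 to 12.6, 14 and 13 CPM in labelled knockout. Untreated labelled knockout was the highest group and untreated wild-type the lowest, while both treated groups overlapped. The responses were 0.95 (adjusted p = 0.000142) and -0.48 (adjusted p = 0.0219), and the interaction was -1.43 (SE 0.22, adjusted p = 0.00271). Members that did not pass included Slc7a1, an arginine transporter, at 1.39 and 1.10, and Stc2, at 0.65 and 0.82. Left-out libraries moved the list's count of calls below 0 between 6 and 13: it was 13 (with 1 above 0) without wild-type with PDGF-BB replicate 1, 12 without labelled knockout untreated replicate 1 and 6 to 10 without any other, and that of departures lay between 3 and 9.

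The promoters of Asns and Aars are shown because they carry the letters of an amino acid response element. No other ATF4 list member with a promoter entry and a negative interaction call does. Both genes were called in the interaction in all alternatives run. In the 250 bases before the annotated start (RefSeq, GRCm38.p6), TGATGNAA was searched on both strands. It was found in 246 of 10427 genes tested that have an entry (2.36%), and in 6 of 20 ATF4 list members, of which 2 (Aars and Asns) are among the 6 with an entry and a negative interaction call. Capitals mark the match, which begins 23 bases before the start in Asns (chr6:7693210-7693459, minus strand) and 112 bases before it in Aars (chr8:111033592-111033841, plus strand), where it lies on the opposite strand.
Asns: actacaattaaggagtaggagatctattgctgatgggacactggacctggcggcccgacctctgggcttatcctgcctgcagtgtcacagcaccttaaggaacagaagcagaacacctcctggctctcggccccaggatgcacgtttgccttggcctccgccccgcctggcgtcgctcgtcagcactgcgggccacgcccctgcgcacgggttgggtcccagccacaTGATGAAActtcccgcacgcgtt
Aars: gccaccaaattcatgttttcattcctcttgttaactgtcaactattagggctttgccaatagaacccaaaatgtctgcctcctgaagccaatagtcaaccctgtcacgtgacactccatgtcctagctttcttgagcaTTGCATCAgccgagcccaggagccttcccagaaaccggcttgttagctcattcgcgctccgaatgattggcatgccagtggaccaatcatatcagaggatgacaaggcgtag

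Glycolytic genes rose in both genotypes, in 18 of 25 measured members each, and less in labelled knockout. Over all genes 25% rose in wild-type and 17.6% in labelled knockout. The interaction was below 0 in 10 of the 25 and above 0 in 1, while the departure was called in 1 each way. The median response was 1.11 in wild-type and 0.69 in labelled knockout, and the median departure -0.10. By library the medians were 1.34, 1.07 and 0.96 in wild-type and 0.70, 0.68 and 0.69 in labelled knockout. With PDGF-BB, 21 of the 25 were lower in labelled knockout and none was higher (26.6% and 10.6% of all genes). Untreated, 9 were lower and 2 higher (24.8% and 9.15% of all genes). Left-out libraries moved the 10 calls between 8 and 13, and without wild-type with PDGF-BB replicate 1 the departures below 0 numbered 4.

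Hk2, the hexokinase of the first step (ENSMUSG00000000628, chr6:82725025-82774454), stood at 5.99, 6.01 and 4.94 CPM and rose to 68, 65.2 and 64.2 CPM in wild-type, and rose from 8.64, 9.09 and 7.95 to 36.7, 32.7 and 40.4 CPM in labelled knockout. Each group was clear of the others, with labelled knockout above wild-type untreated and below it with PDGF-BB. The interaction was -1.36 (SE 0.14, adjusted p = 0.00025) and the departure -0.41 (adjusted p = 0.14). Slc16a3, the lactate exporter MCT4, went from 8.82, 10.1 and 9.06 to 69.6, 56 and 57.4 CPM in wild-type and from 8.44, 10.0 and 7.06 to 26.5, 25 and 23.9 CPM in labelled knockout (interaction -1.11, adjusted p = 0.00277). Ldha, lactate dehydrogenase, went from 220.4, 241 and 223 to 1265, 904 and 840.2 CPM in wild-type, highest in replicate 1, and from 229, 253 and 253 to 571, 584 and 589.8 CPM in labelled knockout (interaction -0.87, adjusted p = 0.0108). For both genes the untreated groups overlapped and the treated groups did not.

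The bifunctional enzymes that make and break fructose 2,6-bisphosphate, the substrate shared with TIGAR, moved unequally. Pfkfb3 went from 18.1, 14.3 and 13.1 to 41.7, 51.6 and 54.1 CPM in wild-type and from 25.4, 23.7 and 20.7 to 34.1, 31.8 and 33.7 CPM in labelled knockout. Its treated labelled knockout libraries lay above every untreated and below every treated wild-type library (interaction -1.14, SE 0.17, adjusted p = 0.00287, departure -0.67, adjusted p = 0.0451, the latter called in 12 of 26 alternatives). Pfkfb4 was the only member of the list called above 0, with responses of 0.38 and 0.93 (interaction 0.56, adjusted p = 0.0367, departure 0.66, adjusted p = 0.014). No member was called above 0 on leaving out any 1 of 9 libraries, the exceptions being untreated wild-type replicate 2 and treated wild-type replicates 1 and 3. Pfkfb1 had -0.62 and -0.37, and Pfkfb2 had 0.052 and 0.11, with no call in the interaction (adjusted p = 0.697 and 0.86).

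HIF targets outside glycolysis lay somewhat further below the slope. Among 18 measured members the interaction was below 0 in 8 and above 0 in none (13 at an unadjusted p under 0.05, and 1 above 0 with DESeq2), with 2 departures below 0 and a median departure of -0.25. The median response was 0.92 in wild-type and 0.44 in labelled knockout. Egln3, a prolyl hydroxylase that marks HIF for breakdown, went from 2.52, 2.49 and 2.92 to 15.4, 12.7 and 13.1 CPM in wild-type and from 5.23, 4.21 and 4.39 to 10.1, 10.0 and 10.1 CPM in labelled knockout, the groups being clear of each other. Its interaction was -1.03 (SE 0.16, adjusted p = 0.00286). P4ha2, a collagen prolyl hydroxylase, had responses of 1.39 and 0.60 (interaction -0.79, adjusted p = 0.000573), and Vegfa of 0.75 and 0.17 (interaction -0.58, adjusted p = 0.0087). Bnip3, a mitophagy receptor, went from 19.5, 20.9 and 16.2 to 62.6, 49.8 and 45 CPM and from 14.5, 14.3 and 14.6 to 20.9, 20.5 and 19.6 CPM (interaction -0.95, adjusted p = 0.00617), but 22.3% of its exonic bases lie under exons of the other strand. Left-out libraries moved the 8 calls between 6 and 10, and the 2 departures between 0 and 5, with 5 only without wild-type with PDGF-BB replicate 1.

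The HIF core letters ACGTG, which are also part of the E-box CACGTG, were searched in the same promoters. The windows of Hk2, Pfkfb3 and Slc16a3 are shown. Of the glycolysis and HIF list members with the letters and a negative call, they had the largest negative interactions. On either strand the letters occur in 2578 of 10427 genes tested (24.7%), in 12 of 24 glycolysis and 11 of 15 HIF list members, and in 13 of the 17 members of both lists with a negative interaction call. Capitals mark the matches. They begin 226 and 52 bases before the start of Hk2 (chr6:82774455-82774704, minus strand gene, both matches on the opposite strand and so printed as CACGT), 60 before that of Pfkfb3 (chr2:11553930-11554179, minus strand gene) and 27 and 14 before that of Slc16a3 (chr11:120948817-120949066, plus strand gene). A match describes the letters and no binding.
Hk2: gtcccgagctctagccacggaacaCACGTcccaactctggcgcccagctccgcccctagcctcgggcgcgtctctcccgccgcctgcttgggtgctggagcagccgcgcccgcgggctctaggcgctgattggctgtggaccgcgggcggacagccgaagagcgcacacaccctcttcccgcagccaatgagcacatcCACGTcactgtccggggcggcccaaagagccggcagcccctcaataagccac
Pfkfb3: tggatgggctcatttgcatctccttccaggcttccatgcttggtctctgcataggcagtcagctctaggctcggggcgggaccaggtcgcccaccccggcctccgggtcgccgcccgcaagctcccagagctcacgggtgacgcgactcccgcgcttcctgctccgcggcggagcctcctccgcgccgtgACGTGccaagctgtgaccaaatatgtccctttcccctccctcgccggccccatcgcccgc
Slc16a3: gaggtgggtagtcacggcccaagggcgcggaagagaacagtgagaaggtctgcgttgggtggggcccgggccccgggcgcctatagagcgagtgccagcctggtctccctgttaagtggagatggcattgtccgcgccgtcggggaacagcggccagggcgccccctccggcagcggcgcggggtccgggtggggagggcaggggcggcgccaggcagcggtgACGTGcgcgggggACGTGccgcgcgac

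**Figure D4:**
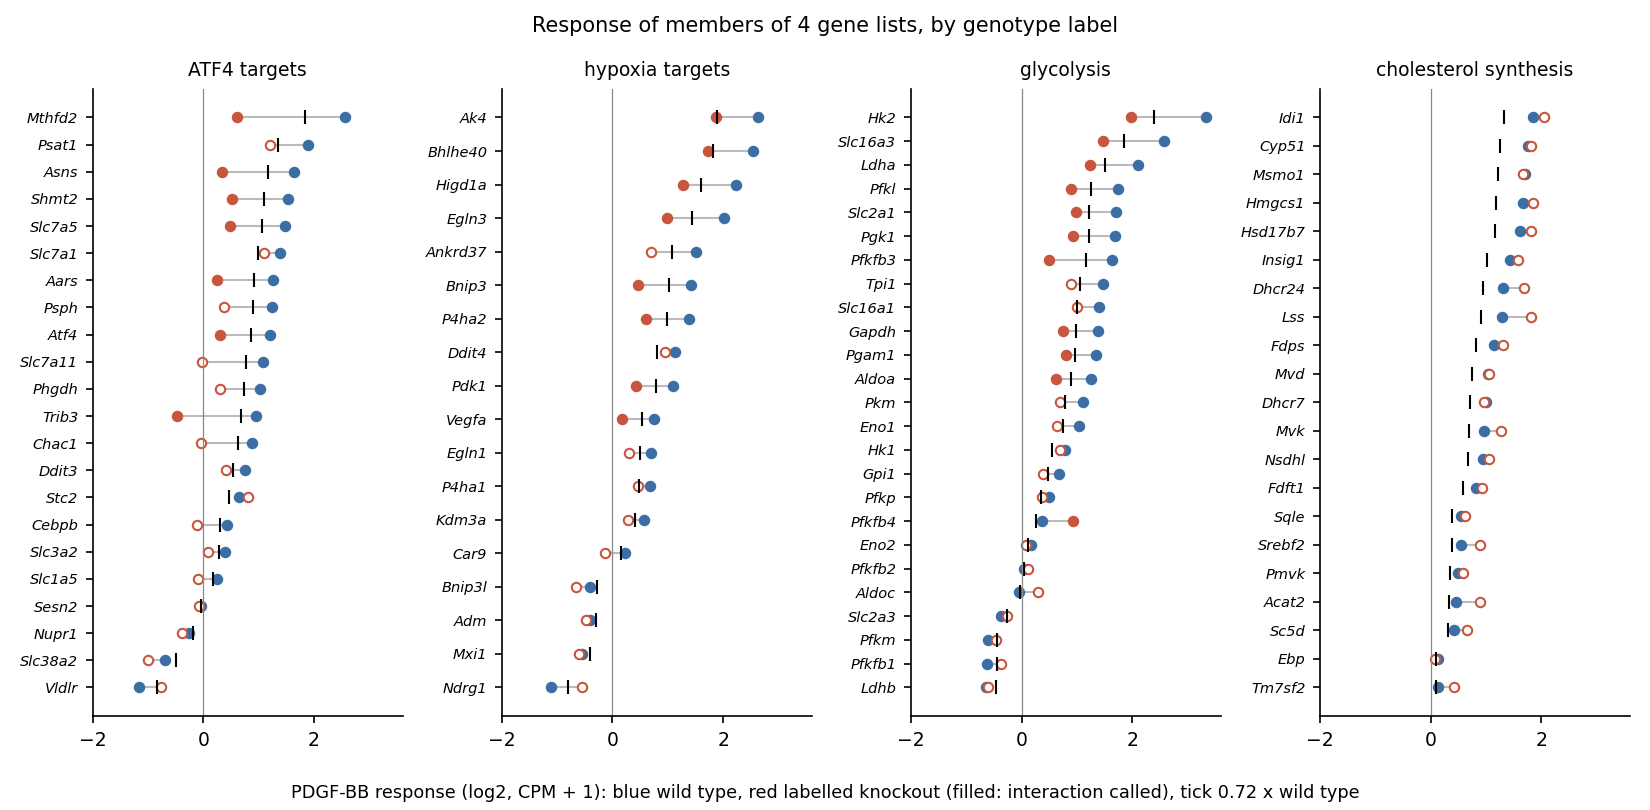
Response (log2 of CPM + 1) of measured members of 4 gene lists, blue for wild-type and red for labelled knockout, filled red where the interaction was called, with a tick at the general slope times the wild-type response. In the ATF4 list 7 members are called and lie left of the tick, glycolysis members lie near it, and in the cholesterol list most labelled knockout points lie to its right.

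Early genes of the growth factor response kept the general proportion, apart from a few members. Of 29 measured, the interaction was below 0 in 3 (Hbegf, Jun, Egr3) and above 0 in 1 (Klf6). The median response was 1.04 in wild-type and 0.75 in labelled knockout, and the median departure 0.05. Fosl1, the AP-1 subunit with the largest wild-type response of the list, had 3.13 and 2.49 (adjusted p = 0.197), Myc had 1.36 and 1.03 (adjusted p = 0.215) and Egr1 had 1.71 and 1.28 (adjusted p = 0.119). The calls below 0 numbered 9 without wild-type with PDGF-BB replicate 1 and 6 without labelled knockout untreated replicate 1.

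Jun, an AP-1 subunit, was the early gene with the lowest departure. It went from 60.1, 70.8 and 66 to 261, 223 and 207 CPM in wild-type and from 64.7, 55.8 and 58.7 to 98.7, 95.5 and 94.3 CPM in labelled knockout. Untreated groups overlapped, and the treated labelled knockout libraries lay between untreated and treated wild-type (interaction -1.11, SE 0.13, adjusted p = 0.000431, departure -0.60, adjusted p = 0.017). Egr3 went from 4.22, 4.58 and 3.93 to 15.8, 13.4 and 16.2 CPM and from 7.26, 5.55 and 6.56 to 10.0, 9.97 and 10.7 CPM (interaction -1.02, adjusted p = 0.00353). Klf6, a zinc finger factor, fell from 216, 217 and 218 to 152, 160.4 and 154 CPM in wild-type and overlapped at 159, 181 and 169 and 170.5, 172 and 178 CPM in labelled knockout (interaction 0.51, adjusted p = 0.00485). Among 16 genes of ERK feedback, Errfi1 and Spred1 (interaction -0.49, adjusted p = 0.0186, called in 20 of 26 alternatives) were called below 0, and the median departure was 0.12. The phosphatase Dusp5 had responses of 2.93 and 2.52, and Spry4 of 2.11 and 1.70, without a call. With treated wild-type replicate 1 or 3 left out, 4 members were called below 0, and 1 was with untreated wild-type replicate 1 or 2, untreated labelled knockout replicate 3 or treated labelled knockout replicate 1 or 2 left out.

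EGF family members were called in both directions. Of 8 measured, 2 were below 0 (Epgn, Hbegf) and 2 above (Nrg1, Egfr), or 4 and 3 without wild-type with PDGF-BB replicate 1. Hbegf, a ligand of the EGF receptor, went from 14.7, 11.7 and 14.6 to 114, 89.7 and 91 CPM in wild-type and from 24.4, 22 and 27.3 to 76.9, 72.7 and 83.6 CPM in labelled knockout. It began higher and ended lower in labelled knockout, without overlap (interaction -1.13, SE 0.16, adjusted p = 0.00225). Epgn, the ligand epigen, went from 0.441, 0.407 and 0.834 to 5.77, 5.05 and 3.92 CPM in wild-type and from 0.196, 0.267 and 0.389 to 0.968, 0.486 and 0.75 CPM in labelled knockout. At this low level its interaction of -1.49 (adjusted p = 0.00302) was called in 23 of 25 alternatives and not with edgeR or DESeq2. Egfr, the receptor, fell from 112, 100.1 and 116 to 37.7, 53.2 and 58.4 CPM and from 52.1, 45.6 and 46 to 36.5, 37.7 and 34.6 CPM (interaction 0.75, adjusted p = 0.0357, called in 13 of 26 alternatives).

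Nrg1, a ligand of the ErbB receptors (ENSMUSG00000062991, chr8:31814551-32884797), had one of the largest positive interactions. It fell from 118, 97.7 and 103 to 14.1, 18.5 and 20.5 CPM in wild-type and from 107, 87.3 and 79.4 to 49.7, 49 and 52.3 CPM in labelled knockout. The untreated groups overlapped, whereas the treated ones did not. The responses were -2.53 and -0.84, the interaction 1.69 (SE 0.19, adjusted p = 0.000351) and the departure 0.97 (adjusted p = 0.00934).

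Ribosome biogenesis factors followed the slope closely. Of 24 measured, the median response was 1.17 in wild-type and 0.81 in labelled knockout and the median departure -0.0047. The interaction was below 0 in 2, the helicase Ddx21 (1.70 and 1.05, adjusted p = 0.00119) and Wdr43 (1.22 and 0.83, adjusted p = 0.0398, called in 13 of 26 alternatives). No departure was called by limma, edgeR or DESeq2, and 1 had an unadjusted p under 0.05. The calls below 0 were 8 (with 1 departure) without wild-type with PDGF-BB replicate 1, and 7 without replicate 3 of that group. They were 2 without untreated replicate 2 or treated replicate 2 of wild-type and 1 without any other single library. The 16 purine and pyrimidine synthesis genes had medians of 0.69 and 0.44, with 1 call above 0, Prps2 (-0.55 and -0.16, adjusted p = 0.04999, called in 10 of 26 alternatives). Without treated wild-type replicate 1 or 3, 2 of these genes were above 0 and 2 below, and 9 other single omissions left none. Cad, the enzyme that opens pyrimidine synthesis, responded by 0.97 and 0.97.

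Genes that PDGF-BB lowered fell less in labelled knockout. Of 17 measured FoxO targets the interaction was above 0 in 5 and below 0 in none (12 at an unadjusted p under 0.05, none below 0 with edgeR or DESeq2). The median response was -1.26 in wild-type and -0.92 in labelled knockout, and the median departure 0.03. Klhl24 fell from 182, 179 and 184 to 21.4, 26.6 and 27 CPM and from 207, 191 and 178 to 54.8, 58.1 and 58.6 CPM. Its untreated groups overlapped and its treated labelled knockout libraries were all above the treated wild-type ones (interaction 1.10, SE 0.12, adjusted p = 0.000416, departure 0.29, adjusted p = 0.253). Fbxo32, a muscle ubiquitin ligase subunit, had the same order at 45.6, 43.8 and 43.8 and 8.99, 7.78 and 11.5 CPM against 44.6, 36.6 and 34.9 and 14.9, 15 and 14.1 CPM (interaction 0.80, adjusted p = 0.0203). Without wild-type with PDGF-BB replicate 1, or without labelled knockout untreated replicate 1, 7 members were called above 0. Without any other single library 2 to 5 were.

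The alpha-arrestin genes of that list departed from the slope. Txnip, an inhibitor of glucose uptake and thioredoxin, stood at 588, 617 and 629 CPM in untreated wild-type and at 306, 239.9 and 222 CPM with PDGF-BB. In labelled knockout it stood at 288, 250.4 and 246 CPM untreated and 234, 244 and 235 CPM with PDGF-BB, so that treated wild-type overlapped both labelled knockout groups, which lay just apart. The interaction was 1.13 (SE 0.14, adjusted p = 0.000908) and the departure 0.77 (adjusted p = 0.00857), and 19.4% of its exonic bases lie under exons of the other strand. Arrdc4 stood at 22.3, 23.8 and 21.4 and 19.98, 19.7 and 21.1 CPM in wild-type and rose from 18.6, 13.4 and 15.5 to 22, 22 and 22.1 CPM in labelled knockout (interaction 0.61, adjusted p = 0.0317, called in 14 of 26 alternatives). Its departure was less stable than that of Txnip: it was called in 13 of 26 alternatives, at 0.47 to 0.68. That call was lost with any treated labelled knockout library left out. Arrdc3, a relative outside the list, went the other way: 41.6, 37.9 and 43.6 and 40.3, 39.1 and 41.6 CPM in wild-type, and 57.8, 45.7 and 46.4 and 23.3, 23.6 and 25.7 CPM in labelled knockout. It fell there (interaction -0.99, adjusted p = 0.00119, departure -0.99, adjusted p = 0.00132), and its wild-type response was -0.023.

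**Figure D5:**
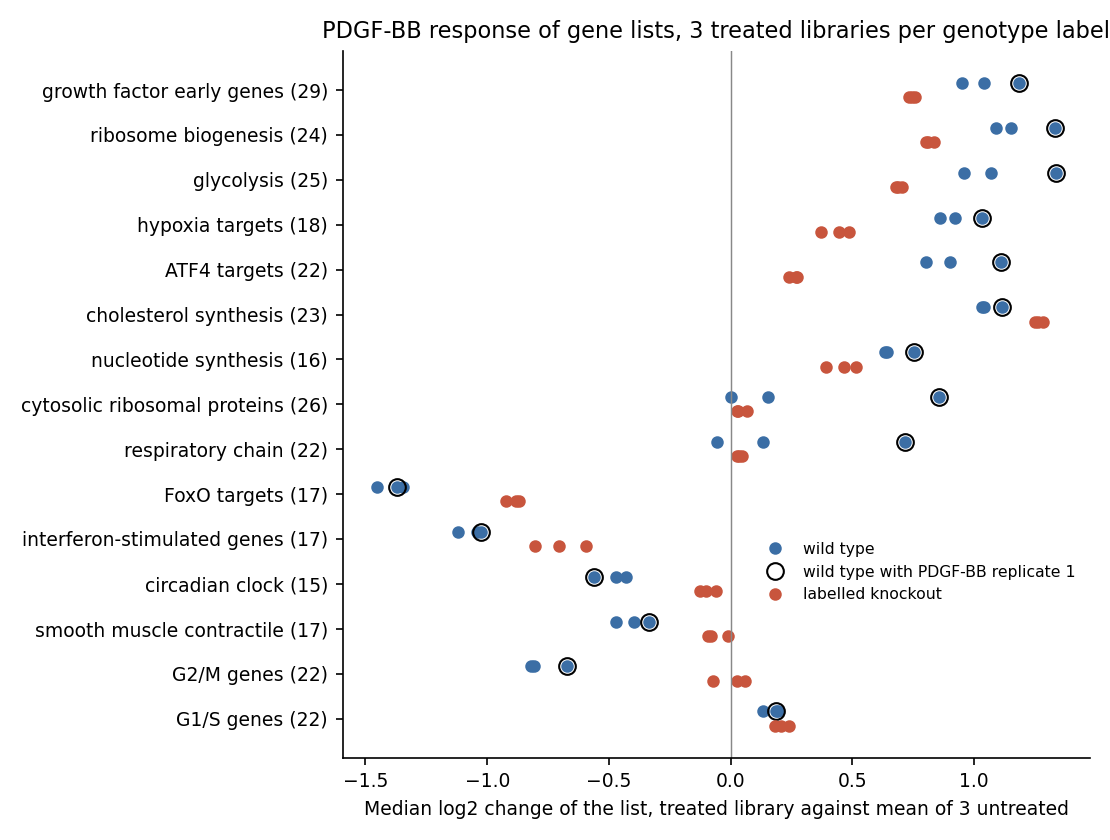
Median log2 change of 15 gene lists (measured members in brackets) in each treated library against the mean of the 3 untreated libraries of its genotype, blue for wild-type with replicate 1 ringed and red for labelled knockout. The genotypes do not overlap in ATF4 targets (0.80 to 1.11 against 0.24 to 0.27), and only the ringed library stands high in ribosomal proteins and the respiratory chain.

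Clock genes and interferon-stimulated genes showed the same direction. Of 15 clock genes 5 were above 0 and 1 below, the repressor Bhlhe40 at 2.55 and 1.73 (adjusted p = 0.0124). The PAR factor Dbp fell from 44.9, 51 and 47.3 to 10.5, 7.98 and 8.95 CPM and from 46, 34.2 and 34.8 to 12.2, 13.3 and 15.5 CPM (interaction 0.85, adjusted p = 0.0205, 18.0% of its exonic bases under exons of the other strand). Per1, a clock repressor, fell from 33, 32.8 and 32.1 to 20.1, 22.1 and 24 CPM in wild-type, and its labelled knockout groups overlapped at 26.4, 24.3 and 25 and 26.9, 25.7 and 24.4 CPM (interaction 0.57, adjusted p = 0.0128). Left-out libraries moved the 5 calls between 2 and 6. Of 17 interferon-stimulated genes 2 were above 0 and none below: Ifit2 fell from 44.1, 45.3 and 44.7 to 13.1, 14.2 and 15.1 CPM and from 25.8, 27 and 28.8 to 16.7, 18.6 and 16.5 CPM (interaction 0.97, SE 0.12, adjusted p = 0.000573). The RNA sensor Ifih1 had -1.43 and -0.76 (adjusted p = 0.014). The medians of that list were -0.97 and -0.70.

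Contractile genes of smooth muscle had a median response of -0.29 in wild-type and -0.08 in labelled knockout over 17 measured members. By library the medians were -0.33, -0.40 and -0.47 against -0.09, -0.01 and -0.08. The interaction was above 0 in 2. Lmod1, an actin nucleator, fell from 136, 165 and 131 to 87.3, 80.3 and 73.6 CPM in wild-type and stood at 157, 196 and 204 and 168, 162 and 163 CPM in labelled knockout, whose groups overlapped (interaction 0.67, adjusted p = 0.0264). Cald1, caldesmon, fell from 2504, 2599 and 2494 to 1223, 1389 and 1366 CPM and from 1987, 2548 and 2506 to 1853, 1862 and 1915 CPM (interaction 0.62, adjusted p = 0.0238). Both calls were lost with any treated labelled knockout library left out, and with wild-type untreated replicate 1 or 2 left out. In the list 1 call was made without wild-type untreated replicate 3 or wild-type with PDGF-BB replicate 2. The myosin Myh11 had -0.99 and -0.54, the coactivator Myocd -0.95 and -0.47, and the actin Acta2 -0.29 and 0.10, without a call (adjusted p = 0.313, 0.391 and 0.405).

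In the Notch pathway 12 members were measured and 3 called. Hey2, an effector of Notch in arterial smooth muscle, fell from 40.6, 39.1 and 39.9 to 4.68, 3.39 and 3.68 CPM in wild-type and from 42.1, 28.8 and 33.5 to 10.7, 11.9 and 10.0 CPM in labelled knockout. The treated labelled knockout libraries were all above the treated wild-type ones (interaction 1.48, SE 0.19, adjusted p = 0.000908, departure 0.61, adjusted p = 0.0934). The ligand Jag1 fell from 397, 378 and 400.3 to 113, 136 and 147 CPM and from 455, 415 and 417 to 265, 269.9 and 241 CPM (interaction 0.84, SE 0.13, adjusted p = 0.0026). Hey1 had the opposite sign: it stood at 0.63, 1.02 and 0.655 and 0.607, 0.532 and 0.429 CPM in wild-type and fell from 13.7, 8.36 and 8.45 to 2.72, 3.75 and 3.06 CPM in labelled knockout (interaction -1.19, adjusted p = 0.0185, not called with edgeR or DESeq2). Among 18 TGF-beta and YAP targets 4 were above 0, with Amotl2 at -0.79 and -0.28 (adjusted p = 0.00763) and Ajuba at -0.72 and -0.25 (adjusted p = 0.00611), both regulators of YAP. The count was 6 without wild-type with PDGF-BB replicate 1 and 2 without most single libraries.

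Other large positive interactions were falls that were smaller or absent in labelled knockout, often from a lower start. Nr3c2, the mineralocorticoid receptor, fell from 13, 13.2 and 14.1 to 0.668, 1.4 and 1.29 CPM in wild-type and from 3.6, 2.74 and 2.34 to 1.01, 1.12 and 0.625 CPM in labelled knockout, and the treated groups of both genotypes overlapped near 1 CPM (interaction 1.77, SE 0.24, adjusted p = 0.00119). Fhl2, a LIM-only cofactor of smooth muscle transcription, fell from 107, 122 and 117 to 50.0, 36.8 and 35.9 CPM in wild-type and stood at 35.9, 40.9 and 41.2 and 41.4, 40.1 and 46.1 CPM in labelled knockout. Its untreated labelled knockout level was already that of treated wild-type (interaction 1.60, SE 0.16, adjusted p = 0.000221, departure 1.18, adjusted p = 0.00146). Tnfsf15, a TNF family ligand, had the same form at 11.4, 12.9 and 11 and 3.04, 3.86 and 3.74 CPM against 2.62, 2.74 and 3.23 and 3.18, 3.7 and 3.31 CPM (interaction 1.68, adjusted p = 0.000207).

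Fgd3, an exchange factor for Cdc42, fell from 89.4, 95.1 and 84.1 to 20.6, 22.2 and 23.4 CPM in wild-type and from 35.2, 45.2 and 42.5 to 30.9, 27.1 and 31.9 CPM in labelled knockout. Untreated, wild-type was higher, and with PDGF-BB labelled knockout was higher, both without overlap (interaction 1.54, SE 0.14, adjusted p = 0.000135, departure 0.98, adjusted p = 0.0018). Edar, the ectodysplasin receptor, fell from 17.7, 17.2 and 17.9 to 0.85, 0.997 and 0.613 CPM and from 4.38, 4.08 and 3.78 to 0.507, 0.486 and 0.375 CPM, all treated libraries lying below 1 CPM (interaction 1.56, adjusted p = 0.000293, departure 0.60, adjusted p = 0.0559). Unc5c, a netrin receptor, and Rassf4, a RAS association protein, had interactions of 1.39 (adjusted p = 0.00123) and 1.61 (adjusted p = 0.00256). Acss3, at 1.39 (adjusted p = 0.0084), was not called with edgeR or DESeq2, and 33.9% of its exonic bases lie under exons of the other strand.

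The 30 genes with both responses called in opposite directions were 0.211% of those tested. Of 5278 genes called in both genotypes, 5247 moved the same way and 31 opposite ways. Dkk2, a secreted Wnt antagonist (ENSMUSG00000028031, chr3:132085292-132180304), had the largest of these interactions: it fell from 6.3, 6.77 and 6.26 to 3.7, 4.05 and 3.8 CPM in wild-type and rose from 6.35, 5.28 and 5.95 to 14, 11.8 and 15.9 CPM in labelled knockout. Untreated groups overlapped, and the treated labelled knockout libraries were the highest of all 12 (interaction 1.73, SE 0.16, adjusted p = 0.000159, departure 1.55, adjusted p = 0.000859). Pdzd2, a multi-PDZ protein, had the same pattern, at 7.75, 7.64 and 9.77 and 3.58, 5.45 and 6.38 CPM against 10.2, 8.76 and 7.56 and 16.1, 16.2 and 15 CPM (interaction 1.41, adjusted p = 0.00443).

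For Ctnnd2, Sorcs2 and Gnai1 the genotypes differed untreated and came closer with PDGF-BB. Ctnnd2, delta-catenin, fell from 13.3, 14.4 and 10.4 to 6.92, 7.44 and 6.74 CPM in wild-type and rose from 4.91, 7.29 and 7.73 to 8.85, 10.1 and 9.43 CPM in labelled knockout (interaction 1.23, adjusted p = 0.00611). Sorcs2, a sortilin family receptor, went from 99.8, 98.4 and 98.1 to 49.9, 79 and 78 CPM and from 45.7, 50.5 and 50.4 to 66.2, 62.9 and 66.8 CPM (interaction 0.95, adjusted p = 0.0122). Gnai1, an inhibitory G protein subunit, went from 87, 80.7 and 80.5 to 66.7, 62.4 and 60.0 CPM and from 41.2, 47.9 and 45.7 to 57.1, 59.4 and 63.3 CPM (interaction 0.80, adjusted p = 0.00119). In all 3 genes, treated and untreated libraries of a genotype did not overlap.

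With the signs reversed, Deptor, an inhibitor bound to mTOR, rose from 6.99, 6.16 and 7.39 to 8.81, 11 and 10.4 CPM in wild-type and fell from 23.2, 15.6 and 15.5 to 9.72, 12.6 and 9.93 CPM in labelled knockout. The genotypes were apart untreated and overlapped with PDGF-BB (interaction -1.18, SE 0.22, adjusted p = 0.00884). Ppp1r3c, which targets a phosphatase to glycogen, rose from 17.5, 17.6 and 20.3 to 26.8, 25.3 and 25.6 CPM in wild-type and fell from 10.1, 5.75 and 5.89 to 3.96, 4.04 and 3 CPM in labelled knockout, and there the genotypes were furthest apart with PDGF-BB (interaction -1.26, SE 0.24, adjusted p = 0.00946).

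Cholesterol synthesis genes lay above the slope. The 23 measured genes had a median response of 1.04 in wild-type and 1.27 in labelled knockout. Their median departure was 0.50, and 22 of the 23 departures were above 0, where 7567 of all 14202 genes lay below 0. The departure was called above 0 in 3 members and below 0 in none, with 17 at an unadjusted p under 0.05. It was called in 9 without wild-type with PDGF-BB replicate 1 and in 1 without most single libraries, and with edgeR and DESeq2 in 1 and 4. The interaction itself was called in none by limma, edgeR or DESeq2, with 2 at an unadjusted p under 0.05 and 1 call above 0 without that library, so the labelled knockout response was not shown to exceed that of wild-type. Median responses by library were 1.11, 1.03 and 1.04 in wild-type and 1.25, 1.28 and 1.26 in labelled knockout.

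Lss, lanosterol synthase, rose from 26, 25.8 and 25.3 to 56.7, 65.8 and 69.7 CPM in wild-type and from 16.5, 23.7 and 23.7 to 78.5, 72.2 and 80.4 CPM in labelled knockout. It began lower and ended higher in labelled knockout, each time without overlap, although neither gap passed the test (adjusted p = 0.0987 and 0.1). The departure was 0.91 (SE 0.15, adjusted p = 0.00934) and the interaction 0.54 (adjusted p = 0.101). Insig1, the sterol sensor that holds SREBP in the endoplasmic reticulum, rose from 33.8, 34.2 and 34.6 to 98.8, 94.6 and 89.6 CPM and from 31.3, 43.5 and 41.3 to 116, 116 and 116 CPM (departure 0.54, adjusted p = 0.0427, called in 11 of 26). Msmo1, a methylsterol oxidase, had almost equal responses of 1.70 and 1.67.

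Single genes above the slope included Ngef, Fbn2 and Gjb2. Ngef, an exchange factor for RhoA downstream of ephrin receptors, rose from 1.32, 2.8 and 1.79 to 33.6, 28.2 and 26.1 CPM in wild-type and from 0.654, 0.736 and 0.945 to 30.6, 27.2 and 34.5 CPM in labelled knockout. It began lower in labelled knockout and reached the same level, with responses of 3.37 and 4.16 (departure 1.74, SE 0.21, adjusted p = 0.00146, interaction 0.78, adjusted p = 0.0875). Fbn2, a fibrillin of elastic microfibrils, rose from 2.21, 1.83 and 2.09 to 3.04, 5.25 and 4.72 CPM and from 3.08, 2.14 and 2.06 to 12.7, 11.6 and 11.7 CPM. Its treated labelled knockout libraries were above all others, while the untreated groups overlapped (interaction 1.15, SE 0.23, adjusted p = 0.014, departure 1.37, adjusted p = 0.00449). Gjb2, connexin 26, rose from 0.189, 0.306 and 0.179 to 2.31, 2.73 and 2.08 CPM and from 0.72, 0.802 and 0.445 to 6.82, 7.1 and 6.5 CPM. With so few reads untreated, its departure of 1.20 (adjusted p = 0.00248) was not called with edgeR or DESeq2.

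Departures below 0 were also seen in genes that fell more in labelled knockout than in wild-type, among them regulators of development and bone. Fgfr3, an FGF receptor, fell from 44.2, 46 and 49.8 to 12.1, 13.5 and 12 CPM and from 63.3, 48.6 and 53.1 to 9.91, 11 and 9.81 CPM (departure -1.01, SE 0.12, adjusted p = 0.00168, interaction -0.49, adjusted p = 0.0727), and 13.9% of its exonic bases lie under exons of the other strand. Hr, the hairless corepressor, overlapped in wild-type at 19.3, 15.3 and 20.8 and 16, 14.2 and 18.5 CPM and fell from 18.3, 21.7 and 21.4 to 8.89, 9.05 and 8.81 CPM in labelled knockout (departure -0.98, adjusted p = 0.00677). Lratd1 likewise overlapped in wild-type, at 8.95, 7.69 and 9.41 and 8.87, 7.64 and 8.15 CPM, and fell from 27, 16.6 and 15.8 to 7.74, 7.68 and 5.68 CPM (departure -1.29, adjusted p = 0.00973). Sost, sclerostin, went from 1.7, 2.09 and 2.09 to 0.668, 0.465 and 0.307 CPM and from 46.3, 22.6 and 18.2 to 4.24, 3.26 and 5 CPM, where untreated replicate 1 was the highest library (departure -1.72, adjusted p = 0.017, not called with edgeR or DESeq2).

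Some strong responders were called in the interaction but not in the departure, and those named here were taken for that. Cd44, the hyaluronan receptor, rose from 118, 119 and 124 to 904, 912 and 933 CPM in wild-type and from 94.7, 107 and 97.3 to 574, 500.0 and 602 CPM in labelled knockout (responses 2.92 and 2.47, interaction -0.44, adjusted p = 0.0313, called in 14 of 26 alternatives). Hmga1, a chromatin protein, had responses of 2.90 and 2.17 (adjusted p = 0.0197). The mitochondrial carrier Slc25a27 had responses of -3.25 and -1.88 (adjusted p = 0.00302). Responses of nearly equal size were also present among the 200 largest mean responses. Esr1, the oestrogen receptor, fell from 32.4, 27.3 and 34.2 to 7.23, 10.7 and 12 CPM and from 39.5, 30.2 and 27.7 to 11.6, 10.6 and 8.06 CPM (interaction -0.013, SE 0.26), and Camk1d, a calcium-dependent kinase, had 1.71 and 1.71 (SE of the interaction 0.24). The errors leave differences of either sign possible, and neither gene was called in the departure.

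Of 7 PDGF ligands and receptors none was called in the interaction by limma or edgeR and 1 by DESeq2, with 3 at an unadjusted p under 0.05. Pdgfrb, the main receptor for PDGF-BB, had responses of 0.11 and 0.23 (adjusted p = 0.704). Pdgfra, its paralog, fell from 107, 92.6 and 104 to 60.6, 71.7 and 72.5 CPM in wild-type and from 112, 72.8 and 69.5 to 34.2, 38.2 and 34.5 CPM in labelled knockout. The treated labelled knockout libraries were the lowest, and the departure was -0.79 (adjusted p = 0.0453, called in 12 of 26 alternatives). Without wild-type with PDGF-BB replicate 1, 2 members were called above 0 and 1 below.

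Among 14 genes of the pentose phosphate pathway and NADPH supply, the route TIGAR is known to favour, G6pdx was called below 0. This dehydrogenase of the first step rose from 65.9, 73.5 and 71.1 to 135, 132 and 128 CPM in wild-type and from 78.1, 89.9 and 91.3 to 123, 112 and 112 CPM in labelled knockout. The interaction was -0.48 (adjusted p = 0.0213, called in 19 of 26 alternatives), and 13.6% of its exonic bases lie under exons of the other strand. The median response of the list was 0.31 in wild-type and 0.13 in labelled knockout, but 0.23 in wild-type without replicate 1 of the treated group. Of 21 p53 targets 2 were above 0, Btg2 (0.57, adjusted p = 0.00685) and Trp53inp1 (0.60, adjusted p = 0.0198), both of which fell in both genotypes. Without wild-type with PDGF-BB replicate 1, 5 of the p53 targets were above 0, and of the pentose phosphate list 4 were below and 1 above. On leaving out any other single library 1 to 3 p53 targets were above 0 and 0 to 3 of the pentose phosphate list below.

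For G2/M genes every one of 22 interaction estimates was above 0 with a median of 0.77, yet none was called by limma or edgeR, 1 was by DESeq2, and 15 had an unadjusted p under 0.05. The median departure was 0.55 and all 22 departures were above 0, 9 at an unadjusted p under 0.05 and none called. Over all 14202 genes, 7006 interactions and 7567 departures were below 0. In wild-type 17 fell (34.4% of all genes) and in labelled knockout 1 did (24.8%). The start was lower in labelled knockout for all 22 (24.8% of all genes). Medians by library were -0.67, -0.81 and -0.82 in wild-type and 0.03, -0.07 and 0.06 in labelled knockout, and 5 members were called without wild-type with PDGF-BB replicate 1. Cytosolic ribosomal proteins and respiratory chain genes rested on that library: their median interactions were -0.30 and -0.21 with it and -0.04 and -0.0077 without it. No member of either list was called by limma, edgeR or DESeq2, and none had an unadjusted p under 0.05.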

How the data were processed

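Poly(A) RNA of 12 libraries, 4 groups of 3, was sequenced, and HISAT2, HTSeq and mm10 are named per the submitters' processing notes. The authors deposited 1 table of all libraries whose values are CPM, although it is named for another unit. Each column sums to 1000000, and every value is a whole number of reads within 0.001 read (100% of non-zero values). Whether counting used strand is not given in the sources used here. Depth was 14953807 to 21698488 reads, with a median error of the interaction of 0.17 (log2).

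Levels were tested as log2(CPM + 1) with limma 3.58.1 in R 4.3.3 (4 group means, mean-variance trend, Benjamini-Hochberg adjustment over 14202 genes with at least 1 CPM in at least 3 libraries). A fold change on this scale understates the change of low genes, and all adjusted p-values in the text come from this fit unless edgeR or DESeq2 is named. The departure contrast used the orthogonal slope over all kept genes as a fixed number. Wild-type and labelled knockout responses share no library. Recovered reads were tested with edgeR 4.0.16 (quasi-likelihood) and DESeq2 1.42.0. The limma fit alone was run on simulated counts, which held no outlying library and no trend with exon length. The other alternatives were scaling, filter, pseudocount, library weights, replicate block, slope estimate and each library left out. Same-numbered libraries of a genotype correlated at -0.231 to 0.15 in their deviations from the group means, so the numbers were not taken as pairs.

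Named genes had an annotated symbol and, except for list members and Tigar, a group mean of at least 5 CPM. They were the 12 largest interactions and 8 largest departures in each direction that stayed called with each library left out, up to 8 called in opposite directions, up to 8 large responders called in the interaction alone, up to 4 called members per list, 4 with the smallest interaction among the 200 largest responses, and Tigar. Other list members were named after their values were seen. The genes named and the 38 lists were chosen with earlier results of these data known. Gene positions are from GENCODE (GRCm38) and promoters from RefSeq (GRCm38.p6). Single-gene results of 4 genes are not reported here, though the counts include them.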

Additional observations from a re-analysis of the deposited data

Results flagged for a closer look

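Responses that differed between the genotype labels were tested by the interaction term itself, which was called in 557 of 14202 genes. In 8 named genes both responses were called, in opposite directions. The interaction was 1.73 in Dkk2, 1.41 in Pdzd2, 1.23 in Ctnnd2, 0.95 in Sorcs2 and 0.80 in Gnai1, which fell in wild-type and rose in labelled knockout. It was -1.43 in Trib3, -1.26 in Ppp1r3c and -1.18 in Deptor, which rose in wild-type and fell in labelled knockout. With 3 libraries per group, no library was tested for lying outside its group.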

How the results depend on the processing

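Each single-gene interaction or departure that was called and followed in the other settings kept its sign there. The calls named for Shmt2, Slc7a5, Slc38a2, Atf4, Pfkfb4, P4ha2 and Vegfa were not followed singly in these settings. The median departures of FoxO targets (0.03) and ribosome biogenesis factors (-0.0047) changed sign, with ranges of -0.06 to 0.04 and -0.04 to 0.05 with 1 library left out. Against 557 interaction and 229 departure calls, DESeq2 gave 905 and 357, removal of each library's trend with exon length (chosen after the data were seen) 1132 and 421, library weights 2814 and 1348, and no filter 371 and 125. Leaving out 1 library gave 274 (without labelled knockout with PDGF-BB replicate 2) to 1554 interactions (without wild-type with PDGF-BB replicate 1) and 72 (without labelled knockout with PDGF-BB replicate 1) to 784 departures (without wild-type with PDGF-BB replicate 1). Without wild-type with PDGF-BB replicate 3 the interactions numbered 907. A replicate block over the 4 groups gave 132 departures, and a block by number within each genotype label 228 interactions and 48 departures. Under that block the Tigar differences were 0.49 untreated (adjusted p = 0.0839) and 0.29 with PDGF-BB (adjusted p = 0.220), and without a filter the latter was 0.33 (adjusted p = 0.0560). With 1 library left out it ranged from 0.28 to 0.37.

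The slope of 0.716 was 0.652 by least squares and 0.668 to 0.754 with 1 library left out. The median difference in the direction of the response (-0.17) was -0.147 with the exon length trend removed, -0.136 with library weights, -0.129 with a pseudocount of 5 and -0.218 to -0.114 with 1 library left out. The cause of these shifts was not tested. Of the called single-gene results followed in the settings run, 51 of 90 interactions and 20 of 51 departures were called in every setting. Low levels limit genes such as Epgn, Gjb2 and Sost, where 1 read at the lowest depth is 0.0669 CPM.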

Other observations

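Lif and Csf1, both cytokine genes, fell in wild-type, whereas in labelled knockout Lif rose and the change of Csf1 did not pass the test. Of 17 inflammatory genes, the interaction was above 0 in 2 and below 0 in none (5 at an unadjusted p under 0.05, and 1 below 0 without wild-type with PDGF-BB replicate 1). Lif, a cytokine of the interleukin 6 family, stood at 4.73, 4.58 and 4.41 CPM and 2.98, 2.59 and 2.57 CPM in wild-type and at 3.6, 4.88 and 4.34 CPM and 6.77, 5.59 and 5.25 CPM in labelled knockout (responses -0.59 and 0.38, interaction 0.97, SE 0.18, adjusted p = 0.00837). Csf1, the ligand that sustains macrophages, stood at 745, 768 and 685 and 443, 491 and 485 CPM and at 431, 565 and 576 and 560.1, 551 and 550.3 CPM (interaction 0.72, SE 0.14, adjusted p = 0.0113). Its receptor gene Csf1r, a macrophage marker, was lower in labelled knockout untreated and treated, at 14.1, 14.2 and 12.3 and 15.3, 16.6 and 15.9 CPM in wild-type and 4.78, 5.62 and 6.06 and 11.8, 10.2 and 10.2 CPM in labelled knockout (interaction 0.63, adjusted p = 0.0339, called in 15 of 26 alternatives, with 15.1% of its exonic bases under exons of the other strand). The share of macrophages cannot be told apart from RNA per cell here.

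Developmental and secreted regulators went both ways. Fst, the activin binding protein follistatin, stood at 176, 165 and 172 and 134, 118 and 116 CPM in wild-type and at 98.3, 94.3 and 98.9 and 122, 122 and 121 CPM in labelled knockout (interaction 0.80, SE 0.091, adjusted p = 0.000431, departure 0.66, adjusted p = 0.00146). Adamts1, a matrix protease, stood at 538, 518 and 511 and 277, 315 and 317 CPM in wild-type and overlapped at 255, 213 and 221 and 215, 219 and 204 CPM in labelled knockout (interaction 0.68, adjusted p = 0.0041). Of 12 osteochondrogenic genes 2 were below 0 (Sost, called in 11 of 26 alternatives, and Msx1, called in 18 of 26) and 1 above. Msx1, a homeobox factor, had responses of 0.43 and -0.30 (interaction -0.74, adjusted p = 0.023), and Tnfrsf11b, the decoy receptor osteoprotegerin, -0.22 and 0.29 (interaction 0.51, adjusted p = 0.00973). Without wild-type with PDGF-BB replicate 1, 4 of that list were below 0, and without untreated wild-type replicate 1 or 3, treated wild-type replicate 2 or treated labelled knockout replicate 2 or 3 none was. Ptges, a prostaglandin E synthase, and Xbp1, a factor of the unfolded protein response, rose less, with interactions of -0.63 (adjusted p = 0.0293) and -0.54 (adjusted p = 0.0149).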
